A study of Rattus norvegicus with 6 samples.

Results

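The 10 genes described here encode the core of insulin and insulin-like growth factor (IGF) signalling. They are the ligand genes Igf1 and Igf2, the receptor genes Igf1r, Insr and Igf2r, the receptor substrates Irs1 and Irs2, and the binding proteins Igfbp2, Igfbp4 and Igfbp5. The members were chosen by gene symbol in the array platform's annotation. All 10 were measured, each on 1 probe set, among 18166 genes with a single symbol. They were followed on 6 single-colour Affymetrix arrays of cultured rat hippocampal neurons. The cells came from rat embryos at day 18 and were grown with 10 µM FUDR (5-fluorodeoxyuridine), a nucleoside analogue that holds down dividing cells. At 4 days in vitro every culture was given an adeno-associated virus (1800000 infectious units in each ml), which carried either a control short hairpin RNA (control shRNA, 3 arrays) or one against Ncoa3 (Ncoa3 shRNA, 3 arrays). RNA was taken at 14 days in vitro, and each of 3 experiments gave 1 array of each kind. Rat strain, shRNA sequence and the promoter behind the shRNA: none of these is stated in the labels used here.

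IGF1 and insulin bind tyrosine kinase receptors, which recruit the substrates IRS1 and IRS2. These pass the signal to PI3-kinase, Akt and mTOR, and Akt keeps FOXO transcription factors out of the nucleus. In brain the pathway supports the survival, growth and energy supply of neurons, and the IGF-binding proteins control how much free ligand reaches the receptors. Ncoa3, the silenced gene, encodes a partner that hormone-bound nuclear receptors use to activate transcription.

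On these arrays Ncoa3 was 1.96-fold lower with Ncoa3 shRNA (log2 change -0.97 ± 0.142, SE, n = 3 in each group; adjusted p = 0.00747 by limma). The deposited log2 signals carried an offset between the groups, with a median difference of -0.25 over all genes. Signals and changes below are therefore quantile-normalized, meaning that all 6 arrays were given the same distribution, unless they are called deposited. The highest deposited signal was 14.05 on each control array and 14.00 on each Ncoa3 shRNA array, and many probe sets have one identical value on several arrays of a group but not across groups. The groups thus appear to have been processed apart, so shRNA and processing run cannot be told apart, and no p-value here includes error between runs. Each gene was tested with limma, and a gene passed at a Benjamini-Hochberg adjusted p under 0.05 over all genes. Of all genes 19.5% passed (10.5% higher and 9.04% lower), and 39.3% passed with the experiment as a block. The count differed with the experiment left out: 223 genes passed without experiment 1, 0 without experiment 2 and 8354 without experiment 3. In limma's fit without experiment 2, 3071 genes still had an unadjusted p under 0.05, and 5623 passed there in the deposited values. The list of astrocyte markers had 0 of 7 and that of neuron markers 0 of 9 measured members past the test (0 and 2 at an unadjusted p under 0.05). Other marker lists had members past it, with 2 higher and 2 lower of 9 for GABAergic neurons, 2 and 1 of 8 for microglia, 1 and 2 of 7 for the oligodendrocyte lineage and 0 and 1 of 4 for endothelial cells. Their part in the changes below was not tested. All 9 neuron markers lay above the level of chemosensory receptor genes described below. The microglia markers past the test (Aif1, Cx3cr1 and Ptprc) and the endothelial one (Flt1) did not. Neither did Pdgfra of the oligodendrocyte lineage, nor Vip and Pvalb of the GABAergic neurons. Sox10, Mog, Gad2 and Slc32a1, the others past the test in these lists, lay above it. All 10 insulin and IGF genes had a mean deposited signal above 6.49, the 95th percentile of 227 olfactory and vomeronasal receptor genes. Igf2, at 6.66, lay closest to that level.

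Of the 10 genes, 1 rose with Ncoa3 shRNA, 0 fell and 9 did not pass limma's test, where 19.5% of all genes passed (10.5% higher, 9.04% lower), and 12.4% of the 13474 genes above the chemosensory receptor level. At an unadjusted p under 0.05 there were 3 higher and 1 lower, where 33.6% of all genes had such a p. The gene that rose was Irs2. With the experiment as a block, which takes out differences shared by both arrays of an experiment, Irs2, Irs1 and Igf2 were higher and Igf1r and Insr lower, 5 of 10 where 39.3% of all genes passed (20.8% higher and 18.6% lower). Both substrate genes were thus higher and both tyrosine kinase receptor genes lower in that fit. Limma's tests of the deposited values put 1 gene higher and 3 lower, beside 3.97% of all genes higher and 43.3% lower (47.2% together). With the block these counts were 1 and 6, beside 4.33% and 55.9% (60.2% together). The median change of the 10 genes was 0.067, beside 0.0084 over all genes. The sign of the change was the same in all 3 experiments for 8 of the 10 genes, 5 of them higher and 3 lower, and for 70.3% of all genes.

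**Figure D1:**
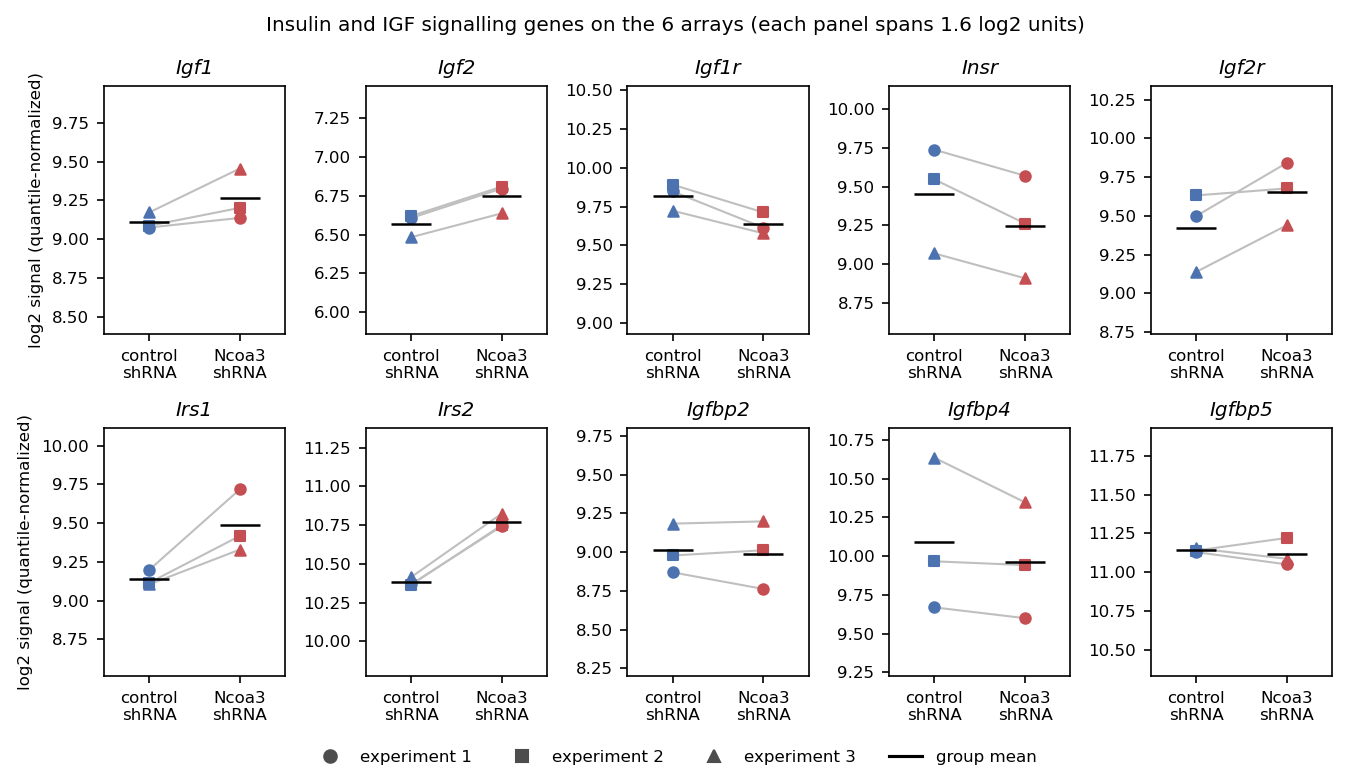
Quantile-normalized log2 signal of each gene on the 6 arrays, control shRNA in blue and Ncoa3 shRNA in red, with a marker shape per experiment, a grey line joining the arrays of an experiment and a black bar at the group mean. Irs2 lies at 10.36 to 10.41 with control shRNA and at 10.74 to 10.82 with Ncoa3 shRNA, while the groups of Igfbp2, Igfbp4 and Igfbp5 overlap.

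The ligand genes stood slightly higher with Ncoa3 shRNA, and neither passed limma's test in the quantile-normalized fit of all arrays without the block. Igf1 encodes the growth factor that activates the IGF1 receptor. Its signal was 9.07, 9.09 and 9.17 with control shRNA in experiments 1, 2 and 3, and 9.14, 9.20 and 9.45 with Ncoa3 shRNA. The groups overlapped, since the first Ncoa3 shRNA array lay below the third control array. The change was 0.15 ± 0.0993 (SE, n = 3 in each group; adjusted p = 0.338 by limma), and 0.119 with the block. The deposited values put Igf1 lower by contrast, at -0.12 (adjusted p = 0.223), so its direction depends on the scaling. Control shRNA replicates 1 and 3 share 1 deposited value of Igf1.

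Igf2, an imprinted growth factor gene that meninges and choroid plexus express strongly in brain, stood at 6.61, 6.62 and 6.48 with control shRNA and at 6.80, 6.81 and 6.64 with Ncoa3 shRNA. Every Ncoa3 shRNA array lay above every control array, as was true of 21.5% of all genes. The change was 0.18 ± 0.0720 (SE), past the threshold with the block (limma's adjusted p = 0.0107), without experiment 3 (0.00299) and after cyclic loess in place of quantile normalization (0.0399), and not in the quantile-normalized fit of all arrays without a block (0.143). The direction was the opposite in the deposited values, at -0.10 (adjusted p = 0.00122), with 6.70, 6.70 and 6.73 against 6.60, 6.62 and 6.60, and 2 arrays of each group shared a value. Of 8 markers of fibroblasts and meningeal cells 2 rose in limma's test (Fn1 by 0.65 and Dcn by 0.52), 0 fell and 6 did not pass, where 19.5% of all genes passed. Fn1 had 1 deposited value on all control arrays and 1 on all Ncoa3 shRNA arrays. Its spread within the groups therefore came from the normalization alone. The mean signal of the list per array ran from 7.64 to 7.77 with control shRNA and from 7.89 to 8.04 with Ncoa3 shRNA. With deposited signals these ranges overlapped, at 7.75 to 7.95 and 7.72 to 7.94, and there 1 marker was higher and 4 were lower. With the block 5 of the 8 markers passed limma's test as higher and 1 as lower, where 39.3% of all genes passed. The lower one was Col1a1, with a change of -0.21 and an adjusted p of 0.272 without and 0.0241 with the block. The part of these markers in the level of Igf2 was not tested. In bulk cultures, fewer cells of a type and less RNA per cell cannot be told apart. Of the 6 markers of choroid plexus epithelium 0 passed limma's test, and 0 had an unadjusted p under 0.05.

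Both tyrosine kinase receptor genes were lower on every Ncoa3 shRNA array than on the control array of the same experiment. Igf1r encodes the main receptor of IGF1. Its signal was 9.85, 9.89 and 9.72 with control shRNA and 9.61, 9.71 and 9.58 with Ncoa3 shRNA. The groups did not overlap, which was true in this direction of 19.0% of all genes. The change was -0.19 ± 0.0748 (SE), or 1.14-fold lower, and was not past limma's threshold (adjusted p = 0.141). It passed with the block (adjusted p = 0.0334), without experiment 3 (adjusted p = 0.0497), after cyclic loess (-0.22, adjusted p = 0.0457) and in the deposited values, where the difference was -0.45 (adjusted p = 0.0205). No array shared a deposited value of Igf1r with another.

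Insr encodes the insulin receptor, which pairs with the IGF1 receptor in hybrid dimers. Its signal was 9.74, 9.55 and 9.07 with control shRNA and 9.57, 9.26 and 8.91 with Ncoa3 shRNA. The groups overlapped, and both arrays of the third experiment were the lowest. The change was -0.20 ± 0.229 (SE), far from limma's threshold (adjusted p = 0.589). The SE fell to 0.0443 with the block, and the gene passed there (adjusted p = 0.0371). By experiment the change was -0.17, -0.28 and -0.16. The deposited difference was -0.47 (adjusted p = 0.252, and 0.0163 with the block).

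Igf2r encodes a receptor with no kinase, which carries IGF2 and mannose 6-phosphate proteins to lysosomes. Its signal was 9.50, 9.63 and 9.14 with control shRNA and 9.84, 9.68 and 9.44 with Ncoa3 shRNA. The groups overlapped, and the change of 0.23 ± 0.161 (SE) did not pass limma's test without the block (adjusted p = 0.377) or with it (0.0909). The change was 0.34 and 0.30 in experiments 1 and 3 but 0.045 in experiment 2, and in the deposited values it was -0.030 (adjusted p = 0.918).

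Sequence upstream of these genes was read for the letters that FOXO proteins, which act downstream of insulin, nuclear receptors and other factors are known to bind. RefSeq windows of the 250 bases before a transcript start (assembly GRCr8) were found for 9 of the 10 genes, and Irs2 was not matched. Each window was searched on both strands for the forkhead box letters GTAAACA, the E-box CACGTG, the nuclear receptor half-site AGGTCA and the cyclic AMP response element TGACGTCA. Of 33469 such windows 3.21%, 5.59%, 14.1% and 1.59% held them, in that order. Of these genes Insr had 1 forkhead match, Igf2r had 2 E-box matches, and Igf1r and Igfbp2 had 1 E-box match each. The other 5 genes, and the remaining motifs in these 4, gave no match, which says only that the letters are not in these windows. The GC content of the windows ran from 46.8% for Igf1 to 79.6% for Igf1r, beside a median of 51.2% over all windows. Shown are the whole Igf2r window, the stretches around the matches of Insr and Igf1r, and the Irs1 window for comparison, 5′ to 3′ on the gene's strand with the matched letters in capitals. The Igf2r window is chr1:50526628-50526877 (plus strand), that of Insr chr12:6128886-6128914 (minus strand), that of Igf1r chr1:130959955-130959982 (plus strand) and that of Irs1 chr9:91053960-91054209 (minus strand).
Igf2r: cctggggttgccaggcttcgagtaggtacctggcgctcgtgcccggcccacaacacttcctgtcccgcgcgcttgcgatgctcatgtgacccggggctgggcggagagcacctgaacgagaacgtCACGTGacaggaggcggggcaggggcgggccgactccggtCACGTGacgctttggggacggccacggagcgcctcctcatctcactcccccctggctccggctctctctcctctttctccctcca
Insr: acgggccgcgtTGTTTACtggccggagtc
Igf1r: gtgcgcgcgggCACGTGtgcgcggcccc
Irs1: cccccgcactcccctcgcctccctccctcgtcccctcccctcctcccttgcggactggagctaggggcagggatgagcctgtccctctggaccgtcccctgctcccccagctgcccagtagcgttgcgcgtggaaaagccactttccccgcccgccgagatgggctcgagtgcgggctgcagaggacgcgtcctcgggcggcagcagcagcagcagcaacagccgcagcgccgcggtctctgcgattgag

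The receptor substrates had the largest positive changes of the 10 genes, and Irs2 passed limma's test. Irs2 encodes a docking protein that links the insulin and IGF1 receptors to PI3-kinase, and it is known as a FOXO target in liver. Its signal was 10.37, 10.36 and 10.41 with control shRNA and 10.74, 10.75 and 10.82 with Ncoa3 shRNA. The groups did not overlap, which was true in this direction of 21.5% of all genes. Irs2 rose 1.31-fold, a change of 0.39 ± 0.0533 (SE, n = 3 in each group; adjusted p = 0.00594 by limma), by 0.38, 0.39 and 0.41 in experiments 1, 2 and 3. It was also higher in the deposited values, by 0.18 (adjusted p = 0.00292), where most genes were lower. There the values were 10.51, 10.51 and 10.45 with control shRNA and 10.67 on all 3 Ncoa3 shRNA arrays. The spread within the Ncoa3 shRNA group therefore came from the normalization alone, and the SE does not measure variation between those cultures. Of all genes 22.4% had 1 deposited value on all 3 Ncoa3 shRNA arrays. The call was lost without experiment 1 (adjusted p = 0.161) and without experiment 2 (0.138), where the change was 0.40 and 0.39, and when each array was only centred on its median (0.46, adjusted p = 0.0677).

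Irs1, the substrate known mainly for growth signals, stood at 9.20, 9.12 and 9.11 with control shRNA and at 9.72, 9.42 and 9.33 with Ncoa3 shRNA. The groups did not overlap, which was true in this direction of 21.5% of all genes. The first Ncoa3 shRNA array was the highest. The change was 0.35 ± 0.112 (SE), or 1.27-fold, and limma's adjusted p was 0.0819 without and 0.0349 with the block. It was 0.52, 0.30 and 0.22 by experiment. Its deposited difference was 0.083 (limma's adjusted p = 0.668), and 3 distinct values were present in each group. The deposited groups overlapped, and by experiment the deposited difference was 0.27, 0.012 and -0.034.

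The deposited differences were also set against those of genes of like brightness, without quantile normalization. This too takes out an offset shared by genes of like signal, so it is not a check free of scaling. Of the 500 genes nearest to Irs2 in mean deposited signal 98.2% had a lower deposited difference than Irs2, and 94.8% of those nearest to Irs1 were lower than Irs1. The share was 16.6% for Igf1r and 19.8% for Insr, and it was 86.0% for Igf2r, 78.8% for Igf2 and 76.2% for Igf1. The binding proteins lay between 26.0% for Igfbp4 and 46.2% for Igfbp5. These shares describe the arrays and carry no test.

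**Figure D2:**
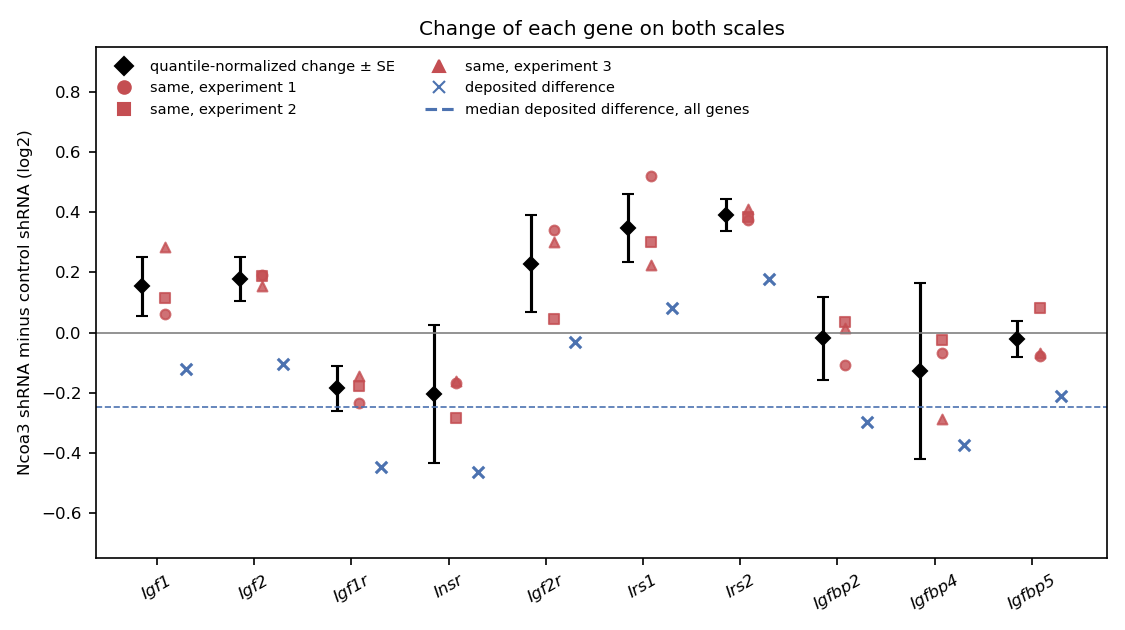
Difference between Ncoa3 shRNA and control shRNA for each gene on the log2 scale. Black diamonds are the quantile-normalized change with its SE (n = 3 per group), red markers the same difference in each experiment, blue crosses the difference of the deposited values, and the dashed line their median over all genes, -0.25. Irs1 and Irs2 lie above 0 on both scales and Igf1r and Insr below 0, while Igf1, Igf2 and Igf2r change sign between the scales.

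The binding protein genes did not pass limma's test, and their changes were the closest to 0 of the 10 genes. Igfbp2 encodes a carrier that neural progenitors and glia secrete. Its signal was 8.87, 8.98 and 9.18 with control shRNA and 8.76, 9.01 and 9.20 with Ncoa3 shRNA, a change of -0.020 ± 0.138 (SE; adjusted p = 0.941). Igfbp4 encodes an inhibitory carrier that the protease PAPP-A cleaves to release IGF. Its signal was 9.67, 9.97 and 10.63 with control shRNA and 9.60, 9.94 and 10.35 with Ncoa3 shRNA. The change was -0.13 ± 0.293 (SE; adjusted p = 0.806), and the 95% interval of -0.84 to 0.59 left a wide range of changes. Igfbp5 encodes a carrier that also binds matrix. Its signal was 11.13, 11.14 and 11.15 with control shRNA and 11.05, 11.22 and 11.09 with Ncoa3 shRNA. The change was -0.022 ± 0.0594 (SE; adjusted p = 0.840), with a 95% interval of -0.17 to 0.12. In the deposited values limma's adjusted p was 0.0964 for Igfbp2, 0.353 for Igfbp4 and 0.0468 for Igfbp5, at differences of -0.30, -0.37 and -0.21, and with the block all 3 genes passed there (0.0168, 0.0252 and 0.0371). After quantile normalization none of them passed with the block (adjusted p from 0.217 for Igfbp4 to 0.749 for Igfbp2).

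Signals of several of these genes differed between the 3 experiments. An additive fit of shRNA and experiment, with limma's F test over the 3 experiments, called 4 of the 10 genes, where 18.8% of all genes passed. Insr was lower in experiment 3 than in the mean of experiments 1 and 2 by -0.54 (adjusted p = 0.0377), and Igf2 by -0.15 (0.0494). Igfbp4 was higher there by 0.70 (adjusted p = 0.0426) and Igfbp2 by 0.29 (0.0494). The adjusted p of each lay close to the threshold. With deposited signals limma's F test called 0 of the 10 (347 of all genes, 1.91%). At an unadjusted p under 0.05 there were 4 there, beside 25.9% of all genes. With each array centred on its median 8 passed (55.5% of all genes). The markers of astrocytes moved between experiments in the direction of Igfbp2 and Igfbp4. Of 7 measured astrocyte markers 6 passed the same F test, all higher in experiment 3 (Aqp4 by 0.78, S100b by 0.41), and their mean signal was 9.38, 9.50 and 9.79 with control shRNA and 9.26, 9.43 and 9.79 with Ncoa3 shRNA. Markers of other cell types passed that F test too, with Csf1r, Olig2, Col1a1 and Dcn higher in experiment 3. Pdgfra, Col3a1, Cldn5 and Flt1 passed and were lower there. The part of any of these markers in the levels of the binding proteins was not tested.

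**Figure D3:**
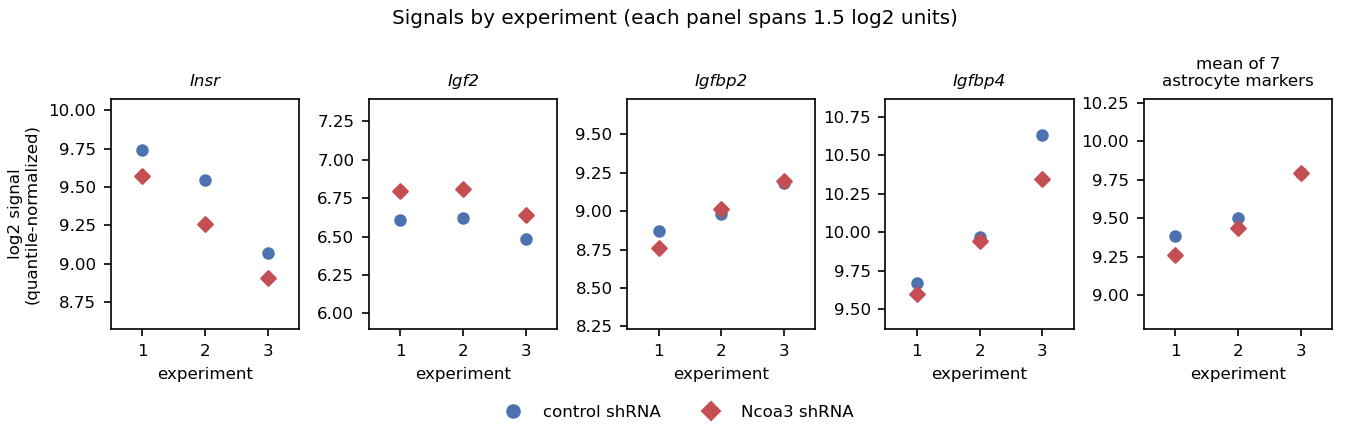
Quantile-normalized log2 signal by experiment for the 4 genes called by the F test over experiments and for the mean of 7 astrocyte markers, with control shRNA as blue circles and Ncoa3 shRNA as red diamonds. Igfbp4 and the astrocyte markers are highest in experiment 3 in both groups, and Insr is lowest there.

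Other genes of the pathway were taken from 9 lists of 109 genes, of which 95 were measured. Of these 13 rose, 4 fell and 78 did not pass limma's test, or 17.9% against 19.5% of all genes, with a median change of 0.043. The block gave 22 higher and 13 lower, 36.8% beside 39.3% of all genes. The deposited values gave 1 higher and 32 lower, 34.7% beside 47.2%. With each array only centred on its median 1 passed and was higher, 1.05% beside 10.3%. Of the 17 genes called, 7 had only 1 deposited value in at least one group, and 3 of the 13 that rose had a deposited difference below 0. Every call was lost without experiment 1 or without experiment 2, where 223 and 0 of all 18166 genes passed. Without experiment 3, where 8354 passed, 2 were lost. Leaving out 1 array lost 16 without control shRNA replicate 1, 14 without control shRNA replicate 2, 7 without control shRNA replicate 3, and 13, 13 and 4 without Ncoa3 shRNA replicates 1, 2 and 3. All 17 kept their sign in each of these 9 fits.

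Outside the cell, the binding protein and protease list had 2 genes higher and 1 lower of 11, or 27.3% beside 19.5% of all genes, and 4 and 2 with the block. Igfbp3, a binding protein gene named here after its values were seen, had a change of -0.40, with an adjusted p of 0.382 without and 0.00724 with the block, and -0.44, -0.35 and -0.42 in experiments 1, 2 and 3. Stc1, the gene of stanniocalcin, an inhibitor of the protease PAPP-A, fell by 0.37 (adjusted p = 0.0232). Its deposited signal was 9.65, 9.74 and 9.48 with control shRNA and 8.97, 9.08 and 8.89 with Ncoa3 shRNA. After quantile normalization these values were 9.49, 9.57 and 9.41 against 9.07, 9.22 and 9.06. There the groups did not overlap, which was true in this direction of 19.0% of all genes. Pappa, the gene of PAPP-A itself, rose by 0.26 (adjusted p = 0.0486) and Igfals, which encodes a subunit of the circulating IGF complex, by 0.44 (0.0145). Both lay below the level of the chemosensory receptor genes, with mean deposited signals of 6.46 and 6.05 with control shRNA. The deposited difference of Pappa was -0.023, with 1 value on all arrays of each group. Igfals had 1 deposited value on all control arrays. Insrr, the receptor paralogue, was also below the chemosensory receptor level and stood at 0.24 (adjusted p = 0.0498). Its deposited difference was -0.043, with 1 value on all Ncoa3 shRNA arrays. The 2 measured Igf2 mRNA-binding protein genes did not pass limma's test (0 at an unadjusted p under 0.05).

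At the receptors, 2 of 15 adaptor genes rose and 1 fell (19.5% of all genes passed). Sh2b2, an adaptor of the insulin receptor, rose by 0.37 (adjusted p = 0.0493). The substrate gene Irs3 rose by 0.29 (adjusted p = 0.0407), but its deposited value was 7.30 on all control arrays and 7.31 on all Ncoa3 shRNA arrays. Crk, an SH2 and SH3 domain adaptor, fell by 0.30 (adjusted p = 0.0187). Among 13 inhibitors of receptor signalling 1 rose (7.69%), the pseudokinase gene Trib1, by 0.43 (adjusted p = 0.00829). Trib1 had 1 deposited value on all Ncoa3 shRNA arrays, so its spread in that group came from the normalization alone.

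The genes inside the cell that passed limma's test moved in both directions. Pdpk1, the kinase that phosphorylates Akt, fell by 0.43 (adjusted p = 0.00707). Its deposited signal was 11.76, 11.83 and 11.60 with control shRNA and 11.16, 11.10 and 11.10 with Ncoa3 shRNA. The phosphatase gene Inppl1, whose product SHIP2 removes the PI3-kinase lipid, rose by 0.37 (adjusted p = 0.0335), and Pik3r2, a regulatory subunit gene of PI3-kinase, rose by 0.30 (0.0465). These were the 3 genes called of 14 in that list (21.4%, beside 19.5% of all genes). Of 18 genes in the mTOR branch 16.7% passed. Eif4e, the cap-binding translation factor, fell by 0.42 (adjusted p = 0.0310). Eif4ebp2, a repressor of that factor, rose by 0.35 (adjusted p = 0.0273), and Tsc2, an inhibitor of mTOR complex signalling, rose by 0.28 (0.0114). Both had 1 deposited value on all control arrays. Among 11 genes of the Foxo, Gsk3 and glucose uptake list 2 rose (18.2%), Foxo3 by 0.23 (adjusted p = 0.0472) and Gsk3a by 0.19 (0.0272), and the deposited difference of Foxo3 was -0.019. Of 8 Ras and MAP kinase genes 1 passed (12.5%), and this was Araf, which rose by 0.38 (adjusted p = 0.0118).

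**Figure D4:**
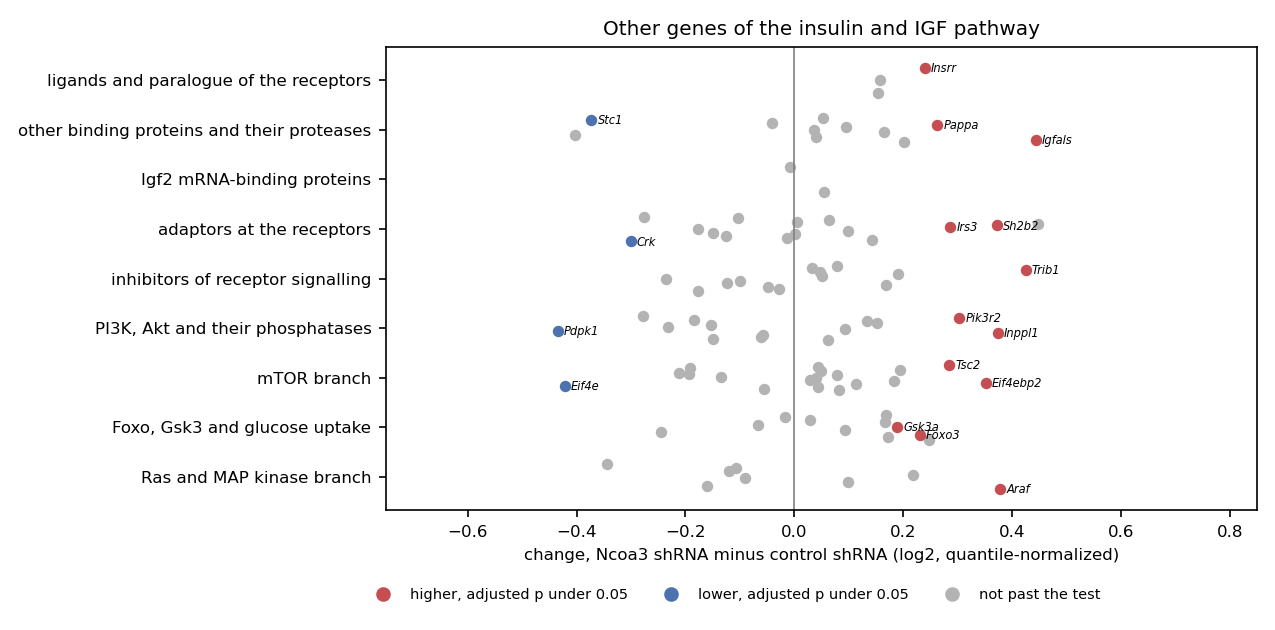
Quantile-normalized log2 change of each of the 95 measured pathway genes, 1 point per gene, grouped by list, with genes past limma's test in red (higher) or blue (lower). The genes called run from Pdpk1 at -0.43 to Igfals at 0.44.

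By likeness over the 6 arrays, the genes closest to Irs2 were Agap3, Fam83h and Adm2. Each gene's signals were centred on its own mean, and the root-mean-square difference from Irs2 was 0.011, 0.015 and 0.019 log2 units, out of 13464 genes above the chemosensory receptor level. Their changes were 0.39, 0.37 and 0.38, which lie near that of Irs2 because the genes were picked by this likeness. Irs2 had 1 deposited value on all Ncoa3 shRNA arrays and 2 distinct values on the control arrays. Its pattern over the 6 arrays is therefore mostly the step between the groups. This describes the pattern on these 6 arrays only. The arrays of a group appear to share a processing run, so shRNA and processing run cannot be told apart in it.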

How the data were processed

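Labelled RNA of 6 cultures was read on single-colour Affymetrix arrays. The authors deposited log2 signals, 1 for each probe set on each array, and the submitters' processing notes name Affymetrix Expression Console. How it summarised and normalized the probes, its version and the build: not given in the sources used here. Of 36685 probe sets 18511 carried 1 gene symbol, 575 several and 17599 none. The platform annotation can be old. A gene on several probe sets was taken from its brightest. No detection call was used.

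Arrays were quantile-normalized over all probe sets and fitted by lmFit and eBayes with a trend (limma 3.58.1, R 4.3.3), two-sided, without a block. The labels say that a number marks an experiment, and deviations from the group means correlated at 0.72, 0.55 and 0.78 within experiments over genes. Correlations between arrays of different experiments ran from -0.73 to 0.50. The labels name separate experiments, with no word on separate animals, so the spread may be partly technical. The number of arrays limits the precision. Scripts were tested on simulated data. Alternatives covered scaling, block, dim genes, probe sets, variance prior, shared values and leaving out arrays or experiments. All 10 members are named, and of each pathway list at most 3 called genes, those with the largest change. The members and lists were chosen with earlier results of these data known.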

Additional observations from a re-analysis of the deposited data

How the results depend on the processing

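With the deposited values 8579 genes, 4 of the 10 members and 33 listed pathway genes passed limma's test, and the members' median was -0.17. With each array centred on its median the counts were 1868, 0 and 1, and the median 0.12. There 1 member had an unadjusted p under 0.05, beside 25% of all genes. Cyclic loess called 4622 of 18166 genes, 3 members (Irs2, Igf2 and Igf1r) and 18 pathway genes. The replicate block called 7147 genes, 5 members and 35 pathway genes, and with the deposited values the block called 10932 genes and 7 members (median -0.17). Of genes above the chemosensory receptor level 1075 passed when tested alone. Without genes that have 1 value in a group, which leaves out Irs2, 698 genes and 0 members passed, and the median was -0.020. At an unadjusted p under 0.05 there was 1 member, beside 23.2% of all genes tested there. Leaving out an array or experiment gave 0 to 8354 genes, 0 to 3 members and a median of 0.028 to 0.11. The count of members that differ between experiments was 0 in the deposited values (1.91% of all genes) and 8 after median centring (55.5%). At an unadjusted p under 0.05 it was 4 in the deposited values, beside 25.9% of all genes.

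The direction turned in the deposited values, with and without the block, for Igf1 (-0.12), Igf2 (-0.10) and Igf2r (-0.030), and after median centring for Igfbp5 (0.070). With an array or experiment left out the changes ran from -0.12 to 0.094 for Igfbp2, from -0.34 to 0.15 for Igfbp4 and from -0.076 to 0.012 for Igfbp5. Irs1 and Irs2 stayed above 0, and Igf1r and Insr below 0, in every alternative run, except that Irs2 has no value without genes that have 1 value in a group. Over the 10 genes 189 alternative values were computed, of which 156 kept direction and call, 3 lost the call, 15 gained it and 15 turned. The cause of these shifts was not tested. With 3 arrays per group the precision is limited by their number.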
